A study of Mus musculus with 4 samples.

Results

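Mouse muscle cells that carried high Myog together with a middle level of the contractile genes Acta1 and Myh3 are described here. They were 584 of 5481 kept cells, or 10.65% (exact Clopper-Pearson 95% interval 9.85% to 11.5%). A cell belonged to them if it had at least 1000 CPM (UMIs of a gene scaled to the same total in every cell) of the nuclear RNA Malat1, under 75 CPM of the division genes Mki67 and Top2a together, at least 1500 CPM of Myog, and at least 1000 but under 5000 CPM of Acta1 and Myh3 together. They are called intermediate cells below. The stage below them (302 cells, 5.51%) met the same limits with Acta1 plus Myh3 under 1000 CPM, and the stage above (873 cells, 15.93%) had 5000 CPM and over. The source was skeletal muscle stem cells of MyoD-KI mice, whose genotype all cells share, grown for 5 days in a serum-rich growth medium and sorted by flow cytometry for a high MyoD-tdTomato signal. MyoD, encoded by Myod1, is a muscle transcription factor, and tdTomato is the red fluorescent protein that reports it. Strain, age, number of animals and the allele design are not given in the labels, and the MyoD-tdTomato low fraction was not analysed here. All 3 stages were thus selected for MyoD before any gene was read, and no untreated or unsorted control enters.

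When a muscle stem cell differentiates, Myod1 activity leads to expression of Myog, the transcription factor myogenin, and the cell leaves the cell cycle as a myocyte. Myocytes express the membrane proteins Mymk (myomaker) and Mymx (myomixer), which drive their fusion into multinucleated myotubes. They also begin to build sarcomeres, the repeated units in which thin filaments of actin and thick filaments of myosin slide past each other. Acta1 encodes the skeletal actin of the thin filament and Myh3 the embryonic myosin heavy chain. A cell with much Myog and a middle level of Acta1 and Myh3 therefore expresses this programme, at lower contractile transcript levels than the cells highest in them. All cells were taken at 5 days, so the stages are ordered by level. Whether that order is one of time was not tested.

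Droplet single-cell sequencing of transcript 3-prime ends gave 4 tables of UMI counts, labelled replicates 1 to 4 of 1 group. The tables held 5950 to 5974 barcodes and 62627341 to 68898900 UMIs each. Each pair shared 99.9% of the barcodes of the smaller table, so the 4 tables hold the same cells and were counted as 1 sample (n = 1). No test between conditions was therefore possible, and no p-value is given. Values are means over the 4 files, a range over files shows repeat sampling of the same cells, and intervals are 95% intervals at the mean count of 1 file that cover counting error only. UMIs of the intermediate cells summed to 6064538 to 6673236 per file, with a median of 10575 per cell. The median was lower in the stage below (9285) and higher in the stage above (12179), and its part in the differences that follow was not tested. Mitochondrial UMIs were at a median of 3.998%, 4.07% and 4.10% from the stage below to the stage above. Of the intermediate cells, 24 (4.11%) lay in the highest 5% of doublet scores, against 1.99% and 2.06% in the stages below and above and 8.65% in cycling cells.

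**Figure D1:**
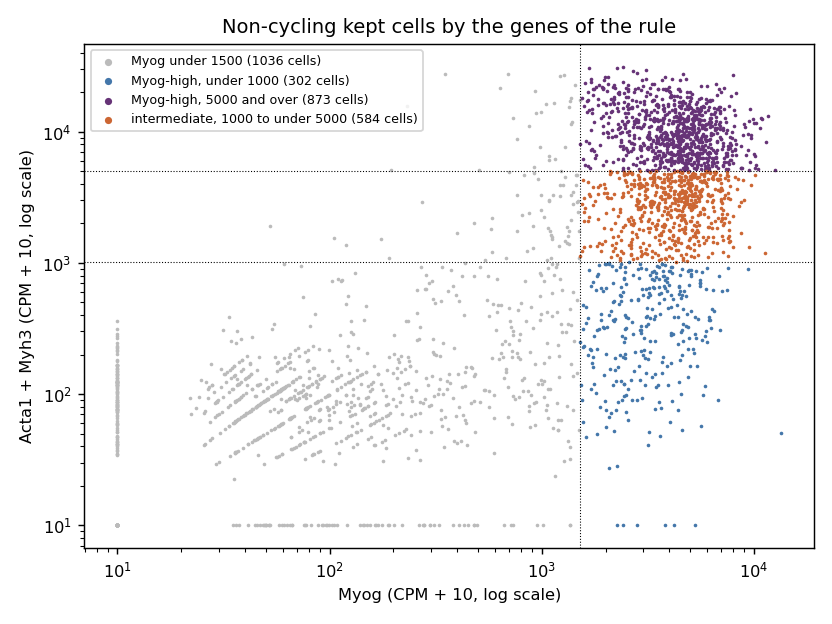
Each point is a non-cycling kept cell, by Myog (x axis) and Acta1 plus Myh3 (y axis), both as CPM plus 10 on log scales. Dotted lines are the limits of the rule. The 584 intermediate cells form the middle band of a continuous cloud with no gap at either limit.

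The genes of the rule describe how the cells were chosen and carry no finding. Acta1 plus Myh3 had a median of 2893 CPM in the intermediate cells (lower and upper quartiles 1867 and 3886), against 354 in the stage below and 9705 in the stage above. Acta1 made up most of it, with a median of 2297 CPM, while Myh3 had a median of 343 CPM and was at 0 UMIs in 48 of the 584 cells. Myog had medians of 3159, 4236 and 4438 CPM in the 3 stages in order. The limits cut a continuum: 45 cells lay just under the lower limit, at 801 to 999.7 CPM of Acta1 plus Myh3, and 45 just over it, at 1006 to 1248 CPM. At the upper limit, 135 cells lay just inside, at 4007 to 4993 CPM, and 130 just outside, at 5025 to 6249 CPM. A further 184 cells met every limit except that of Mki67 plus Top2a, and 60 non-cycling cells had the Acta1 plus Myh3 level with Myog under 1500 CPM.

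The name was checked on marker genes outside the rule, which were read in the same cells. Of 8 differentiating myocyte markers not used to choose the cells, 6 were at least 1.5 times as high as in all other kept cells. Mymk stood at 1015 CPM (interval 990 to 1040) against 502 in the others, and the troponin T gene Tnnt2 at 1760 CPM (1728 to 1793) against 1043. The 2 that missed this mark were Myl4 (740 against 749 CPM) and Ckm (44.5 against 44.6 CPM). All 8 were higher in the stage above than in the intermediate cells, so none was particular to the intermediate cells. For comparison, levels were also read in 697 non-cycling cells with Myog under 200 CPM, called Myog-poor cells, a set chosen after the data were seen. These are cells of the same sorted sample, and what part of their level was free RNA was not tested. After each cell was thinned to 5000 UMIs per file, Mymk was detected in 96.0% of 565 intermediate cells and in 24.7% of 613 Myog-poor cells. Before thinning, the median depth of all 697 Myog-poor cells was 9036 UMIs. The unthinned share in intermediate cells was 99.1%. Pax7, the stem cell transcription factor, was detected in 2.39% of thinned intermediate cells (1.30% to 4.01%) and in 42.9% of Myog-poor cells, at 6.46 and 126 CPM.

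Markers of other cell types were sparse. All 5 endothelial, all 5 immune and all 4 adipocyte markers were under 1 CPM, with Kdr, Tie1, Emcn, Cd3e, Lyz2, Adipoq, Lep and Cidec at 0 UMIs. Of 6 fibroblast markers 5 were under 1 CPM, Lum and Col1a1 at 0, and the list's sum of 57.5 to 65.8 CPM over the files came almost wholly from Col3a1 (60.7 CPM). That sum lay at 92.5 to 107 CPM in the stage below and 28.7 to 31.2 CPM in the stage above. For the 4 Schwann cell markers the sum was 1.48 to 2.62 CPM. The pericyte and smooth muscle list summed to 2428 to 2451 CPM, of which Acta2 gave 2423, while Pdgfrb and Myh11 were under 1 CPM. Acta2 encodes smooth muscle actin, which differentiating skeletal myoblasts also make, and it stood at 1679 CPM in the stage below and 3178 in the stage above.

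Stretches of 250 bases before the transcription start are shown for 4 genes that the results turn on: Tnnt2, a marker outside the rule, Casq2 and Myh8, which were among the highest against the stage below, and Xirp2, the lowest against the stage above. Capitals mark E-boxes (CANNTG, the core bound by MyoD and myogenin with their partners) and matches to the MEF2 motif. Both motifs read alike on either strand. Sequences are from RefSeq on GRCm38.p6, plus strand, and that of Tnnt2 belongs to the more upstream of 2 listed starts, the other of which has 1 E-box. Mymk and Mymx had no entry.
Tnnt2, chr1:135836084-135836333: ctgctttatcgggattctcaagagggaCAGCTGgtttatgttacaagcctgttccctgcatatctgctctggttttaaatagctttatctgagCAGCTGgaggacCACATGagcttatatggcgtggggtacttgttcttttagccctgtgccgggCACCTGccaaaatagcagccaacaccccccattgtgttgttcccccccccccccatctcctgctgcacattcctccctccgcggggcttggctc
Casq2, chr3:102086165-102086414: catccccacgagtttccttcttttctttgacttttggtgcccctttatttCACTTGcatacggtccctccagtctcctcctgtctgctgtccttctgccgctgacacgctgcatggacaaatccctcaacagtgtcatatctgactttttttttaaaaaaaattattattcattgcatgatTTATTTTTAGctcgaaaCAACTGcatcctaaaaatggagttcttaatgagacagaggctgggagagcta
Myh8, chr11:67276874-67277123: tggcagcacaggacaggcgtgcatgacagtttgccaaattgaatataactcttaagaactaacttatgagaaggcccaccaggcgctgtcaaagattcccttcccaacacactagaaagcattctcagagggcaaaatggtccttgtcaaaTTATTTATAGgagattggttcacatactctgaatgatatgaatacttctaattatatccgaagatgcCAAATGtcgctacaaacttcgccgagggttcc
Xirp2, chr2:67445752-67446001: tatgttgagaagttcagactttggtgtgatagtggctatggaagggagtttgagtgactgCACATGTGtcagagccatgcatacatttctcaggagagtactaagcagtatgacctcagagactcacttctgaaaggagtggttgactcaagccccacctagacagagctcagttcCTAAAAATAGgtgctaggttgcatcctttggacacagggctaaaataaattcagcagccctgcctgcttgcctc

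Tnnt2 held 4 E-boxes and no MEF2 match. Casq2 held 2 E-boxes and 1 MEF2 match, Myh8 held 1 of each, and Xirp2 held 2 E-boxes that overlap each other and 1 MEF2 match. E-boxes are common: of 32851 RefSeq promoters, read over the same 250 bases, 66.2% hold one and 2.92% hold a MEF2 match. Counted by gene, as in the sets that follow, 69.3% of 27025 genes have an E-box in at least 1 listed promoter and 3.42% a MEF2 match. Among the 10 genes highest against the stage below, 7 had a listed promoter, of which 6 had an E-box and 3 a MEF2 match (Casq2, Myh8 and Myh1). Among the 10 lowest against the stage above, 9 had one, 8 with an E-box and 2 with a MEF2 match (Xirp2 and Capn3). In the 10 genes lowest against the stage below, 6 had a listed promoter, 5 held an E-box and 0 a MEF2 match. Of the 10 highest against the stage above, all had a listed promoter, 7 with an E-box and 0 with a MEF2 match. Of the genes highest in the intermediate cells against both stages, 3 of 7 had an E-box, and of those lowest 3 of 8, with 0 MEF2 matches in each. These genes were chosen by their levels, and the counts describe letters in a short window and not binding.

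The first comparison asked what separates the intermediate cells from Myog-high cells below this actin and myosin level. Of 8954 genes tested (at least 50 UMIs per file over both stages, genes of the rule left out), 140 were at least 2-fold higher (1.56%) and 77 at least 2-fold lower (0.86%), with the same sign in all 4 files. The second comparison, with the stage above, had 251 of 10006 genes higher (2.51%) and 336 lower (3.36%). In either direction that was 2.42% and 5.87% of the genes tested. Since the rule used both contrasts, these shares give the background for the lists that follow and support nothing. The 2 comparisons share the intermediate cells. The median log2 ratio over all genes was -0.10 against the stage below and 0.21 against the stage above, and scaling by TMM factors shifted these medians by 0.13 and -0.22. Higher genes made up 64.5% of the calls against the stage below and 81.7% with TMM factors. Against the stage above the share was 42.8%, and 18.8% with TMM factors.

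**Figure D2:**
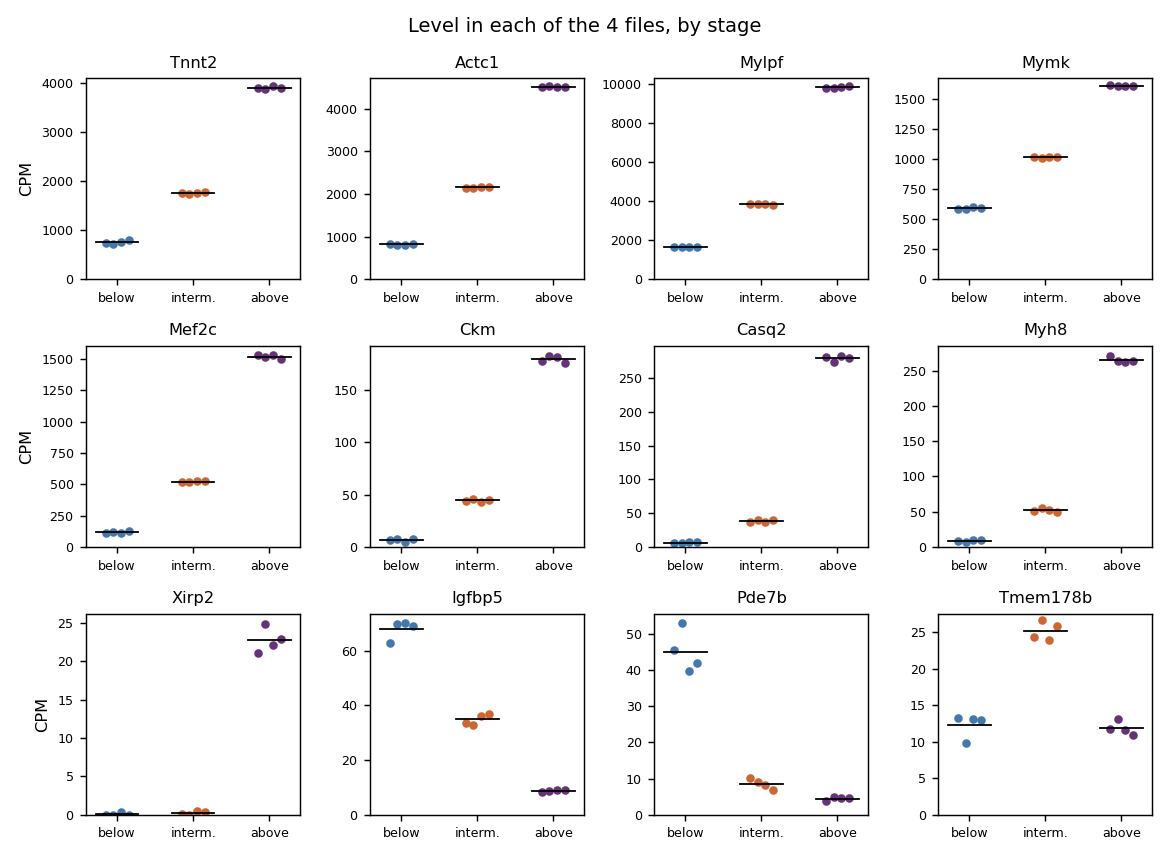
Level (CPM, linear axes from 0) of 12 genes in the stage below, the intermediate cells and the stage above. Points are the 4 files, which hold the same cells, and bars are their means. Files of different stages do not overlap for Tnnt2, Actc1, Mylpf, Mymk, Mef2c, Ckm, Casq2 or Myh8, while Xirp2 is near 0 up to the stage above and Tmem178b is highest in the intermediate cells.

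Thin filament genes were higher than in the stage below and lower than in the stage above. Of 17 tested, 9 were at least 2-fold higher than in the stage below and 0 were 2-fold lower, with a median log2 ratio of 1.08, and 9 were at least 2-fold lower than in the stage above, with a median of -1.04. Tnnt2 had 1760, 1738, 1768 and 1775 CPM in the 4 files of intermediate cells. It had 719 to 799.8 CPM in the stage below and 3894 to 3941 in the stage above, so the files of the stages did not overlap. Its log2 ratio was 1.21 (interval 1.15 to 1.28) against the stage below and -1.15 (-1.18 to -1.12) against the stage above. Actc1, the cardiac actin that embryonic skeletal muscle also makes, had 2148, 2146, 2170 and 2169 CPM, a log2 ratio of 1.40 (1.34 to 1.46) against the stage below. The troponin genes Tnnc1 (log2 ratio 1.55) and Tnni1 (1.41) and the leiomodin gene Lmod3 (1.38), whose product lengthens actin filaments, were also past 2-fold. Several members were not: the tropomyosin gene Tpm1 had 1105, 1265 and 1735 CPM in the 3 stages in order, and Neb, which encodes the giant filament protein nebulin, had 1533, 1978 and 2441 CPM.

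Thick filament and M-band genes stood in the same order. Of 15 tested, 10 were at least 2-fold higher than in the stage below, 0 were 2-fold lower, and the median log2 ratio was 1.23. Against the stage above, 8 of 15 were at least 2-fold lower and the median was -1.35. Other myosin heavy chains than Myh3 differed in level. Myh8, the perinatal form (chromosome 11, 67277124 to 67308634), had 50.4, 55.9, 51.8 and 50.1 CPM in the 4 files, against 6.92 to 10.5 in the stage below and 263 to 271 in the stage above. That is 5.71 times the stage below, with a log2 ratio of 2.40 (1.87 to 2.95), and 371 of the 584 cells had no Myh8 UMI in any file. Myh1, an adult fast form, had 99.9, 467 and 1838 CPM in the 3 stages and was at 0 UMIs in 123 intermediate cells. The fast regulatory light chain gene Mylpf had 3873, 3881, 3858 and 3816 CPM, 2.35 times the stage below. Embryonic light chain gene Myl4 followed with 740 CPM, 3.40 times the stage below and 4.16 times less than in the stage above. Ttn, which encodes the molecular spring titin, had 3085, 5402 and 7752 CPM and stayed under 2-fold in both comparisons, and Mybpc1, which encodes a myosin-binding protein, had 1171, 1025 and 864 CPM.

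At the Z-disc and the costamere, where filaments are anchored, 6 of 12 tested genes were at least 2-fold higher than in the stage below, 0 lower, with a median of 1.00. Against the stage above, 9 of 15 were at least 2-fold lower and the median was -1.28. Smpx, a small costamere protein, had 51.6 CPM in the stage below, 214 in the intermediate cells and 578 in the stage above. Tcap, which encodes telethonin, had 13.1, 59.0 and 239 CPM. Csrp3, the muscle LIM protein, had 83.2, 75.1, 76.1 and 78.2 CPM in the files, 3.36 times the stage below. Actn2, the main crosslinker of the disc, had a log2 ratio of 1.05 (0.85 to 1.24) against the stage below and -1.32 (-1.42 to -1.23) against the stage above. The intermediate filament gene Des had 1081 CPM in the stage below and 1349 CPM in the intermediate cells.

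**Figure D3:**
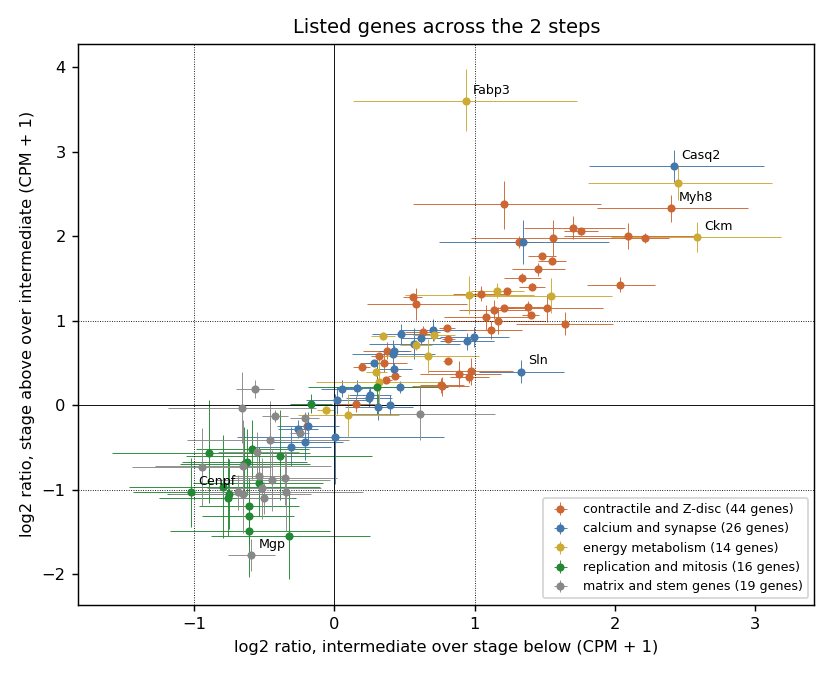
Each point is a tested gene of the lists named in the key, with its log2 ratio (CPM plus 1) of intermediate cells over the stage below on the x axis and of the stage above over intermediate cells on the y axis. Lines are 95% counting intervals, dotted lines mark 2-fold, and both axes share the intermediate cells. Contractile genes lie mostly in the upper right, Casq2, Ckm and Myh8 farthest out, and replication, mitosis and matrix genes mostly in the lower left.

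Genes of calcium handling and excitation differed less. Of 18 tested, 3 were at least 2-fold higher than in the stage below, with a median log2 ratio of 0.45, and 3 of 19 were at least 2-fold lower than in the stage above, with a median of -0.43. Casq2, a calcium-binding protein of the sarcoplasmic reticulum (chromosome 3, 102086415 to 102146514), had 37.1, 40.2, 36.6 and 40.4 CPM, against 5.60 to 7.09 in the stage below and 273 to 283 in the stage above. Its log2 ratios were 2.43 (1.82 to 3.06) and -2.83 (-3.01 to -2.65). Cacna1s, the voltage sensor of excitation, had 7.63, 20.9 and 82.1 CPM. Sln, which encodes the calcium pump inhibitor sarcolipin, had 35.4, 90.5 and 120 CPM. In the intermediate cells 58 cells held 87.1% of its UMIs and 415 had none. From low to high Acta1 plus Myh3 within them it had 113, 79.7 and 84.7 CPM. By contrast the release channel gene Ryr1 had 189, 212 and 244 CPM, and the pump gene Atp2a1 had 230, 310 and 417, neither past 2-fold. Among acetylcholine receptor and synapse genes, 0 of 8 passed 2-fold against the stage below and 0 of 9 against the stage above. With TMM factors Chrng (-1.07) and Ache (-1.09) were past 2-fold against the stage above. The receptor subunit gene Chrna1 had 1015, 1233 and 1742 CPM, and the kinase gene Musk had 208, 174 and 143.

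Energy metabolism genes were split. Of 14 tested, 4 were at least 2-fold higher than in the stage below (Ckm, Mb, Cox6a2 and Cox8b), 0 lower, and 7 of 15 were at least 2-fold lower than in the stage above. Ckm, the muscle creatine kinase, had 44.2, 45.9, 43.1 and 44.9 CPM, against 4.39 to 7.90 in the stage below, and 176 to 183 in the stage above. That made it 6.63 times the stage below, with a log2 ratio of 2.59 (1.97 to 3.19). Brain-type creatine kinase Ckb had 154, 253 and 452 CPM, under 2-fold at each step, though with TMM factors its log2 ratio against the stage above was -1.07. Cox6a2, a muscle subunit of cytochrome c oxidase, had 5.54, 34.7 and 219 CPM, and myoglobin (Mb) 93.3, 210 and 538 CPM. The glycolytic genes Pkm and Ldha stayed under 2-fold, at 948 and 795 CPM. Fabp3, a fatty acid carrier, was at 8.32 CPM and 13.4 times higher in the stage above.

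Among 12 muscle transcription factors tested against the stage below, 1 was at least 2-fold higher and 0 lower. That gene was Mef2c (chromosome 13, 83504034 to 83667080), a MADS-box factor that acts together with the MyoD family. Mef2c had 518, 516, 530 and 524 CPM in the files of intermediate cells, against 112 to 126 in the stage below and 1499 to 1532 in the stage above. Its log2 ratios were 2.15 (1.99 to 2.31) and -1.54 (-1.60 to -1.49), and it was detected in 66.7% of thinned cells, against 29.5% in the stage below and 9.75% of Myog-poor cells. Its relatives differed less, Mef2a with 989, 1312 and 1229 CPM and Mef2d with 82.1, 97.1 and 96.6 CPM. Myod1, whose reporter was sorted for, had 752, 673 and 519 CPM. Myf6, the family member of mature fibres, had 4.64 CPM in the intermediate cells and was 4.45 times higher in the stage above. The list's median changed sign with TMM factors, from -0.11 to 0.03 against the stage below and from 0.18 to -0.05 against the stage above, so no direction is given for it as a whole.

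RNA of both fusion proteins was present. Mymk had 1017, 1010, 1017 and 1015 CPM, with 582 to 598 in the stage below and 1603 to 1618 in the stage above. No intermediate cell was at 0 UMIs of Mymk summed over the files, and the median cell had 962 CPM. Mymx had 208, 378 and 558 CPM in the 3 stages, was detected in 64.7% of thinned intermediate cells and in 2.69% of Myog-poor cells, and was at 0 in 59 cells. Neither gene passed 2-fold at either step, though the log2 ratio of Mymx against the stage below was 0.86, and 1.00 with TMM factors. In the list of 10 tested fusion and adhesion genes, Tmem182 alone was 2-fold higher than in the stage below (9.62, 31.7 and 81.7 CPM in order). Dock1, an activator of Rac in fusing myoblasts, and the adhesion gene Kirrel were 2-fold higher than in the stage above, with 12.9 against 2.86 CPM and 9.24 against 3.14 CPM.

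Stem and progenitor genes had a lower summed level than in Myog-poor cells. Of 9 tested, 0 passed 2-fold in either direction against the stage below, with a median log2 ratio of -0.53, and 1 of 9 (Notch3) was 2-fold higher than in the stage above. Notch3 had a log2 ratio of 1.04 there, and 0.85 with TMM factors. The summed level of the list was 921 to 943 CPM over the files, against 1198 to 1230 in the stage below, 789 to 799.7 in the stage above and 2672 to 2724 in Myog-poor cells. Id1, Id2 and Id3, inhibitors of the MyoD family, made up most of that sum, with 340, 89.4 and 402 CPM in the intermediate cells. Pax7 had 10.8, 6.46 and 3.53 CPM, and Myf5 16.2, 9.85 and 9.61 CPM. The signalling inhibitor Spry1 stood the other way, with 11.9 CPM in the stage below, 18.6 in the intermediate cells and 11.1 in Myog-poor cells, a log2 ratio of 0.61 (0.09 to 1.15) against the stage below. All 10 tested DNA replication genes had a log2 ratio under 0 against the stage below, with a median of -0.61, though 0 passed 2-fold and Mcm3 had 0.11 when cells with any Mki67 or Top2a UMI were left out, and 3 of 10 (Mcm3, Mcm4 and Mcm6, subunits of the replicative helicase) were 2-fold higher than in the stage above. Among 7 mitosis genes, Cenpf was 2-fold lower than in the stage below and 4 were 2-fold higher than in the stage above. With TMM factors Cenpf had a log2 ratio of -0.89 against the stage below. Against the stage above, Cenpf (0.82), Birc5 (0.98), Mcm4 (0.90) and Mcm6 (0.85) then fell under 2-fold. Ccna2 (1.32), Ccnb2 (1.10) and Mcm3 (1.37) stayed past it. Cyclin B1 (Ccnb1) differed from the other tested mitosis genes, with 14.1, 17.6 and 20.6 CPM. Mki67 and Top2a set the upper limit for division genes in all stages, so these counts lie close to the rule. The inhibitor Cdkn1a, which encodes p21, had 1340, 2227 and 2967 CPM, and the retinoblastoma gene Rb1 had 245, 272 and 236. Cyclin D1 (Ccnd1) had 68.1, 38.8 and 12.2 CPM, while Ccnd3 had 330, 369 and 371 CPM.

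Growth factor genes did not move together. Of 11 tested against the stage below, Fst was 2-fold higher and 0 were lower. Fst, which encodes the myostatin antagonist follistatin, had 28.2, 72.9 and 148 CPM. Igf2 had 381, 422 and 441 CPM and H19, the non-coding RNA transcribed beside it, 1769, 1841 and 1835. Igfbp5, a secreted binding protein of these factors, had 33.4, 33.0, 36.1 and 36.9 CPM in the files, against 62.7 to 70.2 in the stage below and 8.33 to 9.01 in the stage above. Of 10 matrix genes, 0 passed 2-fold against the stage below (median -0.51) and 4 were 2-fold higher than in the stage above (Col3a1, Fn1, Spp1 and Mgp). Spp1 had a log2 ratio of 1.10 (0.91 to 1.28) there but -0.11 when the limits of Acta1 plus Myh3 were set to 1500 and 4000 CPM, and 80.3% of its UMIs lay in 58 cells. With TMM factors, Col3a1 (0.80), Fn1 (0.83) and Spp1 (0.87) were under 2-fold against the stage above, and Mgp (1.54) stayed past it. Egr1, an immediate early gene, was 1 of 5 tested stress genes past 2-fold against the stage below, with 13.9, 49.97 and 58.9 CPM. In Myog-poor cells it was at 44.5 CPM, close to the intermediate cells.

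The 10 genes highest against the stage below, by the ranking rule, were Dpysl5, Sorbs2, Ckm, Cox6a2, Casq2, Myh8, Itgb1bp2, Myh1, Mef2c and Tcap. Dpysl5, of the collapsin response mediator family known from growing axons, had a log2 ratio of 2.96 (1.72 to 3.39) on few UMIs, at 9.06, 9.59, 10.0 and 9.23 CPM in the files against 0 to 1.45 in the stage below. Of the 584 cells, 532 had no UMI of it. Sorbs2, an adaptor between actin and the Z-disc, had 11.2, 72.3 and 284 CPM. Itgb1bp2, which encodes melusin, a muscle partner of integrin, had 6.54, 37.6 and 218 CPM. Each of the 10 was higher again in the stage above, by 2.91 times (Mef2c) to 7.25 times (Casq2).

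At the other end stood Pde7b, Plac8, Ctnna2, Tmeff2, Tgfbr3, Clmp, Pdgfrl, Ackr3, Sulf1 and Dpyd. Pde7b, a cAMP phosphodiesterase, had 10.3, 9.14, 8.31 and 6.76 CPM in the files of intermediate cells, against 39.8 to 53.0 in the stage below and 3.73 to 4.83 in the stage above. Its log2 ratio against the stage below was -2.27 (-2.69 to -1.83). The other 9 genes ranged from -2.09 (Plac8) to -1.48 (Dpyd). Among them Tgfbr3 encodes a co-receptor for TGF-beta, Sulf1 an enzyme that trims heparan sulfate, and Ackr3 a scavenging chemokine receptor. In Myog-poor cells 7 of the 10 were higher than in the stage below, for example Tmeff2 at 126 against 30.6 CPM. Plac8 (9.38 against 12.5 CPM), Ctnna2 (3.31 against 16.2) and Ackr3 (19.3 against 26.2) were not.

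Against the stage above, the 10 highest were Sox8, Mest, C77080, St3gal4, Adgra1, Pclaf, Micall2, Igfbp5, Dock1 and Cenpa. Sox8, a transcription factor of the SoxE group, had 24.3, 23.2, 23.5 and 20.8 CPM in the files, against 42.8 to 45.1 in the stage below and 3.53 to 4.83 in the stage above. Myog-poor cells had 3.34 CPM of Sox8, so its highest level of these was in Myog-high cells with little actin. Mest is an imprinted gene of mesoderm, on chromosome 6 from 30723547 to 30748465. Its level was 314, 172 and 36.7 CPM in the 3 stages, with a log2 ratio of 2.20 (2.04 to 2.36) against the stage above. Pclaf, which binds the replication clamp, and Cenpa, the histone H3 variant of centromeres, had 52.8 and 34.3 CPM, with 13.0 and 8.96 CPM in the stage above. St3gal4, a sialyltransferase, had 51.5, 22.3 and 4.51 CPM.

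The lowest against the stage above were Xirp2, Fn3k, Fabp3, Prkg1, BC051019, Capn3, Fgf21, Rxrg, Rnf144b and Fgfbp1. Fabp3 and Prkg1 were at 8.32 and 9.73 CPM in the intermediate cells, and the other 8 were lower. Xirp2, an actin-binding protein of myofibrils (chromosome 2, 67446002 to 67526614), had 0.15, 0.00, 0.46 and 0.33 CPM in the files, resting on 1.5 UMIs per file, against 21.1 to 24.9 CPM in the stage above. With no pseudocount the stage above was 98.1 times higher, with a counting interval of 22.7 to 1370.0 times. Fgfbp1 had 0 UMIs in all files of the intermediate cells, and 6.61 CPM in the stage above was at least 14.2-fold higher than the 3 counts per file that a count of 0 allows. Capn3, the muscle calpain, had 1.71 CPM and was 14.4 times higher in the stage above. Prkg1, a cGMP-dependent kinase, had 13.8, 9.73 and 104 CPM, and the hormone gene Fgf21 had 1.02, 3.08 and 36.6 CPM. Files of the intermediate cells lay below those of the stage above for all 10 genes.

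Some genes were higher in the intermediate cells than in both neighbouring stages. By the ranking rule these were Tmem178b, Nefh, Fcsk, Man1a, Trib2, Lzts3, Spock1, Tmcc3, Ripor2 and Cecr2. Here the rule took genes with at least 50 UMIs per file in the intermediate cells, with no condition on the sign in each file. The list was thus filtered through the cells in which its genes are high, and it is a description. Tmem178b, a membrane protein gene (chromosome 6, 39873271 to 40255150), had 24.3, 26.7, 23.99 and 25.9 CPM, against 9.88 to 13.3 in the stage below and 11.0 to 13.2 in the stage above, so the files did not overlap. Its log2 ratios were 0.98 (0.48 to 1.49) and 1.03 (0.70 to 1.34). Best measured among them were Ripor2, an inhibitor of RhoA, with 193, 285 and 203 CPM, and Tmcc3 with 94.3, 134 and 94.6 CPM. Intervals of both ratios excluded 0 for these 3 genes but included it against the stage below for Nefh, Man1a and Cecr2. For some genes, cells of the stage above under 10000 CPM of Acta1 plus Myh3 were about as high. Ripor2 had 271 CPM in them and 132 CPM in cells of 10000 CPM and over. Spock1 had 27.8 and 12.5 CPM in these 2 bands, and Lzts3 8.88 and 3.81. Nefh was already low in the first of them, at 2.34 CPM. When the ranking was made in replicates 1 and 2 alone, 6 of the 10 were the same genes. Of the 10 ranked that way, 8 stood above both stages in replicates 3 and 4. Those files hold the same cells and share molecules with the first pair, and the stages were called from all 4 files. Such agreement shows repeat counting only and cannot support a peak. The genes lowest in the intermediate cells (Gm29585, Tns1, Plekha2, Trim59, Tubb3, Sncg, Aunip, Jup, Xaf1 and Casq1) rested on low counts except for Tns1, which links integrins to actin and had 43.1, 22.1 and 44.7 CPM. Sncg, Tubb3 and Xaf1 of these had a ratio against the stage below that changed sign with other limits on the cells. Cdkn1c (p57) had 217, 277 and 136 CPM, but 291 CPM in the stage below at 250 to under 1000 CPM of Acta1 plus Myh3, and its log2 ratio against the stage below was 0.35, and -0.08 with Myog of at least 2500 CPM.

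Each gene was also placed between the stages below and above. Its log2 ratio of intermediate cells over the stage below was taken in percent of that of the stage above over the stage below. This was read for genes that differed at least 2-fold between those 2 stages (6.41% of 9611 genes tested higher in the stage above, 9.52% lower, 15.9% in all). All of it rests on the 3 stages of the rule and is a description. The 616 genes higher in the stage above had a median of 44.8%, with quartiles of 31.3% and 55.0%, and 37.2% of them were at or past 50%. The 915 lower genes had a median of 41.2%. Thin filament genes (14) stood at a median of 50.5%, thick filament and M-band genes (13) at 50.8%, Z-disc genes (11) at 44.8%, calcium genes (10) at 44.0% and energy genes (11) at 45.9%. Among single genes, Myom3 (76.2%), the Z-disc scaffold Ldb3 (74.0%) and Tmod1 (70.8%), which encode structural parts of the sarcomere, each stood highest in their lists. Myh7 (33.7%), the small heat shock gene Cryab (30.4%) and Fabp3 (20.7%) stood lower. Among genes lower in the stage above, 8 matrix genes stood at 32.3%, 5 mitosis genes at 33.8% and 7 replication genes at 41.6%.

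**Figure D4:**
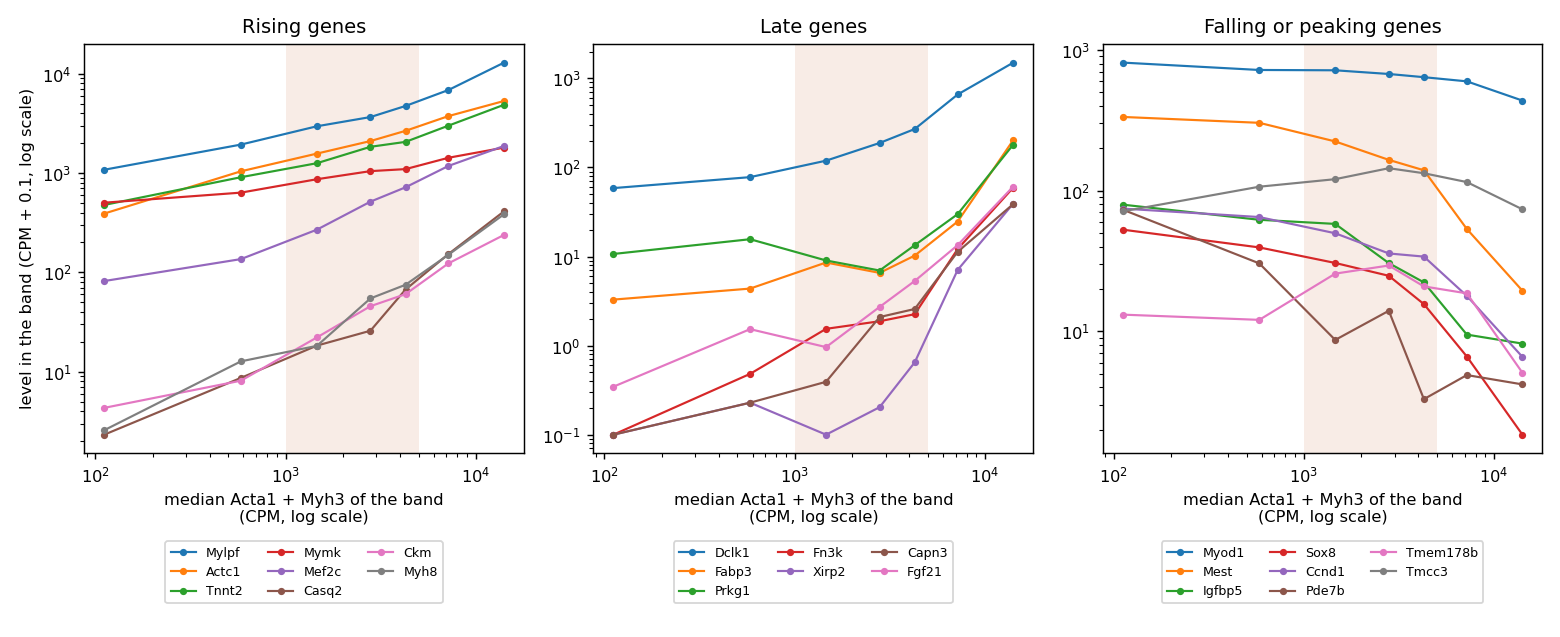
Level of single genes (CPM plus 0.1, log scale) in 7 bands of Myog-high cells, placed at each band's median Acta1 plus Myh3 (log scale). The shaded range holds the 3 bands of intermediate cells. Casq2, Ckm and Myh8 climb through all bands, Xirp2, Fn3k and Capn3 climb mainly past the shaded range, and Tmem178b and Tmcc3 peak within it.

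Within the intermediate cells, 167 had Acta1 plus Myh3 of 1000 to under 2000 CPM, 221 of 2000 to under 3500 and 196 of 3500 to under 5000. Median depth moved with the bands, from 10011 to 10425 and 11275 UMIs, and its part was not tested. Genes high against the stage below differed between these bands too. Mef2c had 269, 515 and 718 CPM in these bands, Ckm 22.0, 45.6 and 60.3, and Casq2 18.2, 25.8 and 67.1. Dpysl5 was at 3.42, 3.86 and 19.8 CPM, so most of its signal came from the last band. Xirp2 stayed at 0.00, 0.10 and 0.55 CPM and then had 6.97 and 39.2 CPM in the 2 bands of the stage above. Fabp3 had 8.47, 6.45 and 10.1 CPM followed by 24.6 and 203. Mest was lower in each next band, with 224, 165 and 139 CPM, and so was Igfbp5, with 57.9, 30.4 and 22.2. The bands are cut from the rule's own genes, and their values are a description.

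A different order appeared when the intermediate cells were banded by Myog. The bands held 140 cells (1500 to under 3000 CPM), 183 (3000 to under 4500), 166 (4500 to under 6000) and 95 (6000 and over). Their median Acta1 plus Myh3 was 2584, 2851, 3093 and 2981 CPM, and their median depth 12318, 10658, 10863 and 9098 UMIs, so depth moved with Myog and its part was not tested. Actc1 had 924, 1743, 2730 and 4421 CPM in order, Myl4 421, 639, 844 and 1400, and Mymk 685, 938, 1184 and 1510. Other filament genes did not all follow, as the light chain gene Myl1 had 825, 907, 836 and 962 CPM and Tnnc2 357, 291, 231 and 224. Pax7 had 14.9, 5.39, 1.79 and 1.42 CPM, Ccnd1 76.8, 34.9, 19.6 and 9.52, and the doublecortin-like kinase gene Dclk1 287, 186, 180 and 89.2. Musk was lower in each next band, with 242, 179, 146 and 79.2 CPM.

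**Figure D5:**
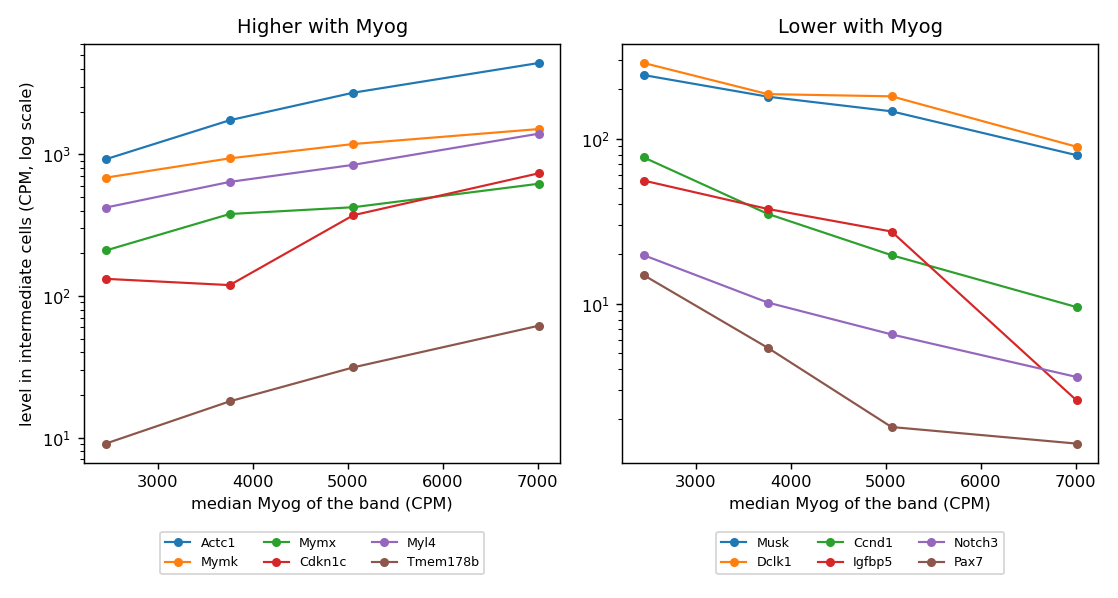
Level of 12 genes (CPM, log scale) in 4 bands of intermediate cells, placed at each band's median Myog (CPM, linear scale). Actc1, Mymk, Mymx, Myl4 and Tmem178b are higher in each next band, Cdkn1c is highest in the last, and Musk, Dclk1, Ccnd1, Igfbp5, Notch3 and Pax7 are lower in each next band.

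Cells of the group differed among themselves in many genes. Spread was measured as a coefficient of variation (CV) meant to lie beyond counting, from the covariance of a gene's CPM between files. Molecules shared between the files raise it by an amount that was not measured, so part of it can be counting error. Over 1688 genes with at least 1 UMI per cell and file its median was 0.45. The 10 highest were Meg3 (4.35), Sln (3.90), Cdkn1c (3.09), Mgp (3.03), Car3 (2.30), AY036118, Dclk1, Myh1, Tnnc2 and Dmd. Filament genes thus differed among themselves, since Myh1 (1.83) and Tnnc2 (1.81) were among the highest while Mylpf had 0.61 and Des 0.33. For the fusion gene Mymk it was 0.52. Meg3 UMIs were concentrated, as 58 of the 584 cells held 94.6% of them and 441 cells had none. For Mylpf the same share of cells held 25.5% of the UMIs.

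Meg3, Rian and Mirg are neighbouring non-coding RNAs of the imprinted Dlk1-Dio3 region on chromosome 12 (Meg3 from 109541001 to 109571726, Mirg ending at 109749460). The 40 intermediate cells with at least 200 CPM of Meg3 had 296 CPM of Rian and 67.2 CPM of Mirg, against 1.29 and 0.31 CPM in the 441 cells without Meg3. The 3 RNAs were thus carried by the same cells. The 40 cells also had more Actc1 (3747 against 2122 CPM), Spp1 (292 against 61.3) and Cdkn1c (532 against 274). Median depth was 9726 against 10546 UMIs and median Myog 4607 against 4257 CPM. In the Myog bands Meg3 had 24.8, 91.6, 146 and 129 CPM, and the part of Myog was not tested. Over the stages, Meg3 had 21.9, 93.4 and 379 CPM, and it was detected in 10.4% of thinned intermediate cells and 23.6% of the stage above.

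Cdkn1c, the p57 inhibitor, which is also imprinted (chromosome 7, 143458339 to 143461050), had no UMI in 407 of the 584 cells, and 58 cells held 86.9% of its UMIs. The 76 cells with at least 500 CPM had more Actc1 than the 407 at 0, with 4831 against 1508 CPM (4792 to 4886 and 1496 to 1520 over the files). They also had more Mymx (569 against 328 CPM), Mymk (1340 against 934) and Tmem178b (66.1 against 17.1). They had less Sln (24.5 against 115 CPM), Car3 (98.1 against 297) and Musk (88.3 against 201). Mylpf was not higher in them, at 3316 against 4061 CPM. Their median Myog was 5593 CPM and that of the cells without Cdkn1c 3925, with similar Acta1 plus Myh3 (2956 and 2851 CPM) and median depths of 9813 and 10579 UMIs. In the Myog bands Actc1, Mymk, Mymx and Tmem178b were higher with Myog and Musk lower. Car3 was also lower in each next band, with 302, 274, 243 and 237 CPM. Sln and Mylpf were highest in the top Myog band, at 172 and 4688 CPM. The part of Myog in the differences between cells with and without Cdkn1c was not tested for any of these genes.

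Matrix transcripts were concentrated as well. The 58 intermediate cells with at least 200 CPM of Mgp, an inhibitor of calcification, had 410 CPM of Spp1 against 42.5 in the other 526. Their Pax7 was 28.1 against 3.97 CPM, their Ccnd1 86.2 against 33.3 and their Ttn 3611 against 5609. Their median Myog was 3324 against 4332 CPM and their median Acta1 plus Myh3 2580 against 2934, and the part of these was not tested. Mgp and Spp1 stood at 1177 and 1212 CPM in the Myog-poor cells, and free RNA and doublets were not tested as a part of this. Cells with Egr1 of at least 100 CPM (93 cells) had more of the Egr1 target and repressor Nab2 than the 368 without, with 37.2 against 5.97 CPM, and a higher median depth (11598 against 10182 UMIs).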

How the data were processed

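UMI counts were used as deposited: per the file headers, the 4 matrices of 10x Genomics 3' v3.1 libraries were written by Cell Ranger 7.1.0, while the submitters' processing notes name Cell Ranger 3.1.0 and the builds mm10 and GRCm39, with no role for either. Of the gene identifiers, 32158 (99.6%) are in GENCODE M21 (GRCm38), from which coordinates were taken. No column of another sample was present.

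Cells in all 4 files with on average at least 1000 genes and under 10% mitochondrial UMIs were kept (5481 of 5944). Because the files hold the same cells, they were averaged as 1 sample, nothing in the labels ties them to separate animals, and no p-value was computed. UMIs were summed per file and stage and scaled to CPM. Ratios are log2 of CPM plus 1, averaged over the files. A gene was called at 2-fold with the same sign in every file and at least 50 UMIs per file over both stages. Ratio intervals are conditional binomial, level intervals Poisson and shares exact binomial, all at 95%. Because PCR copies were collapsed by UMI and the files share molecules, intervals cover counting error only.

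Genes named are the 10 highest and 10 lowest ratios in each comparison, the 10 highest and 10 lowest against both stages, the 10 most variable, and members of fixed lists, chosen by level, ratio or role. The cells, lists and rules were chosen with earlier results of these data known. Sets of cells split by Cdkn1c, Meg3, Egr1 or Mgp are ranges of a measured level, not cell types, and were chosen after the data were seen. Scrublet (scanpy 1.11.5, expected rate 5%) called 0 cells, too few for its calls to be relied on, so no cell was removed as a doublet and its scores serve only to rank cells. Thinning to 5000 UMIs left out 19 intermediate cells, 18 in the stage below, 16 in the stage above and 84 Myog-poor cells. Repeated gene symbols (78 entries) were kept apart by identifier and stayed in the totals and counts of genes. The list members Aldoa and Ddit3 had no entry under their plain symbol and were not read. Calculations used Python 3.11.15, numpy 2.4.6, pandas 2.3.3 and scipy 1.17.1, and edgeR 4.0.16 for TMM factors alone. The procedure was tested on simulated data, and other cell limits, scalings, pseudocounts and count minimums were tried. The simulated files were independent and held 3-fold and 4-fold changes, so the test does not cover calls near 2-fold or shared molecules.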

Additional observations from a re-analysis of the deposited data

Results flagged for a closer look

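In 17 of 385 values (4.42%), 1 of the 4 files lay far from the other 3, by Dixon's criterion, which flags about 1 value in 20 by chance. The files hold the same cells, so these are differences in sampling and counting between files. In CPM of the intermediate cells, replicate 3 had 9.07 of Tmeff2 (6.64 to 6.76 in the others) and 18.3 of C77080 (11.9 to 12.6). Among log2 ratios against the stage below, the file apart was replicate 3 for Tmeff2 (-1.61) and Fgfr4 (-0.79), and replicate 4 for Tgfbr3 (-1.34), St3gal4 (-1.46), Car3 (0.26) and Myl4 (1.71). It was replicate 1 for Ryr1 (0.23) and Mb (1.04), and replicate 2 for Tmcc3 (0.63). Tmcc3 had 0.45 to 0.46 in the other 3 files, and Mb 1.19 to 1.21. Among log2 ratios against the stage above, it was replicate 1 for Dpysl5 (-1.95) and Ctnna2 (1.3), replicate 3 for Tgfbr3 (1.14), replicate 4 for Tmem178b (1.16) and Tnni1 (-1.41), and replicate 2 for Myl4 (-2.08). Each of these ratios had the same sign in all 4 files.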

How the results depend on the processing

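No paired analysis was possible because the 4 files hold 1 group of the same cells. The share of kept cells that were intermediate, 10.7%, was 6.5% with limits of 1500 and 4000 CPM for Acta1 plus Myh3, 15.7% with 700 and 7000 CPM, 9.34% with Myog of at least 2500 CPM, 6.28% with 0 UMIs of Mki67 and Top2a, and 13.3% in cells of 8000 to 14000 UMIs per file, a setting chosen after seeing the data. The 140 genes higher than in the stage below became 76 with the narrower and 247 with the wider limits, 86 with a pseudocount of 5 CPM, 235 with no count minimum and 79 with at least 200 UMIs. The 77 lower genes became 146 with the wider limits, 41 with the higher Myog limit, 41 with TMM factors, 43 with median-ratio factors, 24 with the larger pseudocount, 160 with no minimum, 21 with at least 200 UMIs and 51 in thinned cells. The 251 genes higher than in the stage above became 145 with the narrower limits, 110 with TMM, 107 with median-ratio factors, 84 with the larger pseudocount and 124 with at least 200 UMIs. The 336 lower genes became 190 with the larger pseudocount and 201 with at least 200 UMIs. Scaling lowers or raises all ratios of a comparison together, and higher minimums leave fewer genes to test. The cause of the other differences was not tested.

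Leaving out each file in turn gave shares of 10.5% to 10.7%, and 142 to 148, 69 to 86, 240 to 259 and 328 to 341 genes in the order above. The other 72 values of the share and the 4 counts stayed within 1.5 times the count or within the interval of the share. Of the ratios of single named genes under these settings, 4666 stayed within their counting interval and 667 others lay outside it. Sign changes numbered 56, in 24 ratios, of which 1 had been at least 2-fold: Spp1 against the stage above was -0.105 with the narrower limits. With TMM factors 3 of these ratios changed sign (C77080 against the stage below, Mef2a and H19 against the stage above), and further list members near 0, such as Rb1 (0.21 to -0.03 against the stage above), did so too. The list medians whose sign changed with TMM factors were those of muscle transcription factors in both comparisons, of nuclear non-coding RNAs (-0.01 to 0.12) and of the pericyte list (-0.03 to 0.08) against the stage below. Depth limits genes near the floor of 3 counts per file, or 0.464 CPM in the intermediate cells.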
